A study of Mus musculus with 8 samples.

Results

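The genes described here are 9 regulators and noncollagenous matrix genes of cartilage: Sox9, Sox5, Sox6, Acan, Hapln1, Matn1, Matn3, Lect1 (now named Cnmd) and Cytl1. They were chosen by symbol, and all 9 are among the 15880 genes of the expression table. All 9 also passed a stricter filter on low values, a value above 2 in at least 2 libraries. Cartilage is made by chondrocytes, whose identity depends on the transcription factor Sox9 acting with its relatives Sox5 and Sox6. These factors drive genes for a matrix in which aggrecan, the product of Acan, is bound to hyaluronan by the link protein Hapln1. Matrilins such as Matn1 and Matn3 connect aggrecan with collagen fibrils, while Lect1 and Cytl1 encode proteins that chondrocytes secrete. In newborn long bones this tissue forms the growth plate and the joint surfaces, next to the marrow.

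RNA-seq libraries came from newborn (P1, postnatal day 1) C57BL/6 pups heterozygous for Nes-Gfp, a transgene in which rat nestin regulatory elements drive GFP. Bones were crushed and digested with collagenase; the sample labels name long bones and scapulae, whereas the series' design names long bones and sterna, which hold cartilage of their own. Cells without CD45, CD31 and Ter119 on their surface were sorted by GFP and by Pdgfrα. The 4 resulting populations (GFP+ Pdgfrα+, GFP− Pdgfrα+, GFP+ Pdgfrα− and GFP− Pdgfrα−) had 2 libraries each, and each library came from a pool of 3 pups. GFP marks activity of the transgene, which need not match that of the nestin gene itself in each cell.

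Each value is the deposited normalized signal: reads plus 0.5, divided by an adjusted library size and multiplied by 1e6. The whole reads behind it could be recovered for 100% of values, within 0.01 of a whole number. Libraries held between 3221217 and 5302762 reads, so 3 reads corresponded to values from 0.825 to 1.04. A gene with 3 reads or fewer in both libraries of a population is called at the floor below. A fold against 0 reads is a lower bound taken at 3 reads per library, and other folds against the floor come with a 95% counting interval (exact, from the pooled reads), which covers counting error only. Differences between populations are log2 differences of value plus 1 with their standard error (SE), tested with limma on 2 libraries per population. A gene is called when its p, adjusted over all genes, is at most 0.05. In the GFP− Pdgfrα− libraries a larger part of the signal went to the mitochondrial ribosomal RNA gene mt-Rnr2, at 316794 and 364244, against 93739 to 155742 in the other libraries. That gene was singled out after its values were seen. The median value over all genes was lower there, at 8.19 and 8.61 against 11.7 to 12.3 elsewhere.

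The sort could be checked from its own markers. Pdgfra stood at 733 and 755 in GFP+ Pdgfrα+, 839 and 794 in GFP− Pdgfrα+, 18.1 and 10.4 in GFP+ Pdgfrα−, and 3.30 and 4.36 in GFP− Pdgfrα−. Nes stood at 57.6 and 72.0, 27.4 and 47.1, 149 and 176, and 3.59 and 9.08 in the same order. Both genes followed the labels, since Pdgfra was highest in the 2 Pdgfrα+ populations and Nes was higher in GFP+ than in GFP− libraries at either Pdgfrα state, although the Nes difference between the Pdgfrα+ populations was not called.

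Markers of other cell types differed strongly between the populations. All 8 erythroid markers, led by Hbb-b1, were above the floor in GFP− Pdgfrα−, where their values summed to 13792 and 21871, against 39.8 to 167 in the other 6 libraries, with Epb4.2 at the floor in GFP− Pdgfrα+. The sort gate against Ter119, an erythroid surface marker, had been set to remove such cells. The 7 skeletal muscle markers, led by Ttn, summed to 1628 and 1539 in GFP+ Pdgfrα− and to between 35.7 and 152 elsewhere. There Myod1, Myf5, Pax7 and Myog were at the floor in GFP− Pdgfrα+, and Myod1 and Myf5 in GFP− Pdgfrα−. The GFP+ Pdgfrα− libraries thus carried the skeletal muscle markers, and the same libraries led for 2 more sets. The 6 Schwann cell markers, led by Erbb3, summed to 411 and 383 there against 19.7 to 101 elsewhere, with Sox10 and Foxd3 at the floor in GFP− Pdgfrα+ and Foxd3 also in GFP− Pdgfrα−. The 5 pericyte and smooth muscle markers, led by Rgs5, summed to 1660 and 2188 there against 66.5 to 531 elsewhere.

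Osteoblast and tendon markers separated the 2 Pdgfrα+ populations. The 6 osteoblast markers, led by Spp1, summed to 9293 and 6208 in GFP+ Pdgfrα+, against 104 to 742 in the other libraries, with Bglap at the floor in GFP− Pdgfrα−. The 4 tendon markers, led by Tnmd, summed to 570 and 509 in GFP− Pdgfrα+ and to at most 42.8 elsewhere, with Scx at the floor in GFP+ Pdgfrα+ and GFP− Pdgfrα− and Kera in GFP+ Pdgfrα−. Of the articular and perichondrial markers, Prg4 and Erg were in the table and summed to 386 and 776 in GFP− Pdgfrα+, against 2.19 to 118 elsewhere. Col10a1 and Mmp13, the hypertrophic chondrocyte markers in the table, summed to 707 and 557 in GFP+ Pdgfrα+, mostly through Mmp13, and to 35.9 to 98.5 elsewhere. The 2 genes did not run together. Col10a1 was highest in GFP− Pdgfrα− and was called lower in each other population than there, with a log2 difference of −1.797 for GFP+ Pdgfrα+. Endothelial markers (5 genes, led by Tek) summed to 30.6 to 113 and leukocyte markers (5 genes, led by Lyz2) to 2.90 to 55.3 across the 8 libraries. Emcn, Ptprc and Cd79a of these were at the floor in GFP− Pdgfrα+, and Mpo in GFP+ Pdgfrα+. What these cell types contributed to the cartilage genes was not tested. In such bulk samples, fewer cells of a type and less RNA per cell cannot be told apart.

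Sox9, the factor that chondrocytes require, was lowest in the GFP− Pdgfrα− cells. Its values were 44.9 and 23.1 in GFP+ Pdgfrα+, 57.9 and 52.1 in GFP− Pdgfrα+, 33.1 and 31.3 in GFP+ Pdgfrα−, and 8.76 and 10.7 in GFP− Pdgfrα−. The 2 GFP− Pdgfrα− libraries lay below the other 6, and the GFP− Pdgfrα+ pair lay above the rest, while the GFP+ Pdgfrα+ pair spanned both GFP+ Pdgfrα− libraries. Mean Sox9 was 5.64-fold higher in GFP− Pdgfrα+ than in GFP− Pdgfrα− (log2 difference 2.39 ± 0.28 (SE), limma adjusted p = 1.24e-05). Between GFP+ Pdgfrα+ and GFP+ Pdgfrα− the log2 difference was 0.00 ± 0.28 (adjusted p = 0.994), and it turned negative with median centring and with quantile normalization, at −0.02 and −0.05. The step down from GFP− Pdgfrα+ to GFP+ Pdgfrα− missed the threshold of 0.05 (log2 difference −0.75 ± 0.28, adjusted p = 0.0656). It passed when either GFP+ Pdgfrα+ library was left out (adjusted p = 0.0226 without replicate 1 and 0.0197 without replicate 2), with voom, with edgeR and with the 2 compared populations alone, so in 5 of 17 alternatives (adjusted p 0.00686 to 0.253). The difference between the Pdgfrα+ populations had the same size (−0.75 ± 0.28, adjusted p = 0.163) and was called without GFP+ Pdgfrα+ replicate 1 (−1.21, adjusted p = 0.0432) but in no other of 17 alternatives (up to 0.611).

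Sox5 had the same low end. It read 21.7 and 24.6 in GFP+ Pdgfrα+, 39.5 and 49.7 in GFP− Pdgfrα+, 29.5 and 41.5 in GFP+ Pdgfrα−, and 8.76 and 5.78 in GFP− Pdgfrα−. The GFP− Pdgfrα− libraries were again below the other 6, and the GFP− Pdgfrα+ and GFP+ Pdgfrα− libraries overlapped. Mean Sox5 was 6.14-fold higher in GFP− Pdgfrα+ than in GFP− Pdgfrα− (log2 difference 2.48 ± 0.27, adjusted p = 5.79e-06) and 4.89-fold higher in GFP+ Pdgfrα− than in GFP− Pdgfrα− (2.15 ± 0.27, adjusted p = 2.59e-05). Between the Pdgfrα+ populations its difference of −0.91 ± 0.27 missed the threshold (adjusted p = 0.0743), and it passed without GFP− Pdgfrα− replicate 1 or 2 (adjusted p = 0.0405 and 0.0379; range over 17 alternatives 0.0379 to 0.383), and also with voom and with edgeR. An exon of Sox5 overlaps 4933415D12Rik on the opposite strand, and the library kit does not mark strand, so reads of the 2 genes cannot be told apart where they overlap.

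Sox6 ran the other way. This relative of Sox5 acts with it in chondrocytes and is also known for a role in maturing red blood cells. Its values were 25 and 31.2 in GFP+ Pdgfrα+, 34.4 and 35.5 in GFP− Pdgfrα+, 42.6 and 44.4 in GFP+ Pdgfrα−, and 204 and 227 in GFP− Pdgfrα−. Both GFP− Pdgfrα− libraries were far above the others, and the 4 pairs of libraries did not overlap. Mean Sox6 in GFP− Pdgfrα− was 7.67-fold that in GFP+ Pdgfrα+, 6.17-fold that in GFP− Pdgfrα+ and 4.96-fold that in GFP+ Pdgfrα−, with adjusted p = 2.84e-08, 6.98e-08 and 3.2e-07. The erythroid markers were high in the same 2 libraries, with Slc4a1 at 2407 and 2990 there against at most 24.2 elsewhere; their part in the Sox6 difference was not tested. The smaller step between GFP+ Pdgfrα+ and GFP+ Pdgfrα− was a log2 difference of −0.62 ± 0.17 (adjusted p = 0.0193). That call was lost without GFP+ Pdgfrα+ replicate 1, GFP+ Pdgfrα− replicate 1 or GFP+ Pdgfrα− replicate 2 (adjusted p = 0.112, 0.0773 and 0.097), and also without the mean-variance trend, with voom and with the 2 compared populations alone, so it was kept in 11 of 17 alternatives (0.011 to 0.112).

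Acan, the core protein of the main cartilage proteoglycan, was highest in GFP− Pdgfrα+ cells. Values were 60.1 and 56.8 in GFP+ Pdgfrα+, 189 and 245 in GFP− Pdgfrα+, 21.0 and 12.2 in GFP+ Pdgfrα−, and 67.4 and 80.1 in GFP− Pdgfrα−. No pair of libraries overlapped another, and the order ran from GFP− Pdgfrα+ through GFP− Pdgfrα− and GFP+ Pdgfrα+ to GFP+ Pdgfrα−. The mean in GFP− Pdgfrα+ was 3.72-fold that in GFP+ Pdgfrα+ (log2 difference of GFP+ over GFP− −1.87 ± 0.23, adjusted p = 0.000645) and 13.1-fold that in GFP+ Pdgfrα− (adjusted p = 3.89e-07). The neighbours GFP+ Pdgfrα+ and GFP− Pdgfrα− were not called different (log2 difference −0.33 ± 0.23, adjusted p = 0.247). With median centring this difference was −0.81 and was called (adjusted p = 0.00832), in 1 of 17 alternatives (0.00832 to 0.565).

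Hapln1, the link protein that holds aggrecan to hyaluronan, had the same order as Acan. It read 19.5 and 38.7 in GFP+ Pdgfrα+, 75.5 and 171 in GFP− Pdgfrα+, 4.49 and 3.99 in GFP+ Pdgfrα−, and 53.0 and 61.2 in GFP− Pdgfrα−. The 4 pairs did not overlap, but replicate 2 of the GFP− Pdgfrα+ population was far above replicate 1. The mean in GFP+ Pdgfrα− was the lowest, 6.86-fold below GFP+ Pdgfrα+ (log2 difference 2.44 ± 0.37, adjusted p = 0.000481) and 29.1-fold below GFP− Pdgfrα+ (adjusted p = 3.39e-06), or 17.8-fold without replicate 2 of the latter. The difference between the 2 Pdgfrα+ populations was −2.01 ± 0.37 (adjusted p = 0.00734). It was no longer called without GFP− Pdgfrα+ replicate 2 (−1.43, adjusted p = 0.111) or without GFP+ Pdgfrα+ replicate 1 (−1.53, adjusted p = 0.0831), nor without the mean-variance trend, and was kept in 14 of 17 alternatives (0.00188 to 0.111).

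The Hapln1 differences from GFP− Pdgfrα− were smaller. They were 0.98 ± 0.37 for GFP− Pdgfrα+ (adjusted p = 0.035) and −1.02 ± 0.37 for GFP+ Pdgfrα+ (adjusted p = 0.0297). For GFP− Pdgfrα+ the call was lost when any of GFP− Pdgfrα+ replicate 2, either GFP+ Pdgfrα− library or either GFP− Pdgfrα− library was left out, with adjusted p up to 0.41, and with median centring (0.53, adjusted p = 0.229). For GFP+ Pdgfrα+ it was lost without GFP+ Pdgfrα+ replicate 1 (−0.55, adjusted p = 0.271), and without any of the 4 Pdgfrα− libraries (adjusted p = 0.0528 to 0.112). Both were lost without the mean-variance trend, and the former with the 2 compared populations alone. These calls were kept in 9 of 17 alternatives for GFP− Pdgfrα+ (adjusted p 0.00571 to 0.41) and 11 of 17 for GFP+ Pdgfrα+ (0.00293 to 0.271). The low end of Hapln1 in GFP+ Pdgfrα− was called in each of 17 alternatives against each of the other populations.

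Matn1, a matrilin of mature cartilage, was detected above the floor in a single population. It had 18 reads in each GFP− Pdgfrα− library (values 5.31 and 4.36), 1 read in GFP− Pdgfrα+ replicate 2 (0.446) and 0 reads in the other 5 libraries (0.121 to 0.144). Both GFP− Pdgfrα− libraries stood apart from the other 6. The mean in GFP− Pdgfrα− was at least 4.90-fold higher than in GFP+ Pdgfrα+ and at least 5.53-fold higher than in GFP+ Pdgfrα− (adjusted p = 9.87e-05 and 0.000108). Against GFP− Pdgfrα+ the ratio of pooled reads was 34.2 (counting interval 5.76 to 1387, adjusted p = 0.000164). With 0 reads in most of the other libraries, no difference among the other 3 populations was detectable at this depth. The erythroid markers given above were high in the same 2 libraries, and so was Col10a1, the collagen of hypertrophic cartilage, at 63.9 and 73.5 against 11.1 to 32.2 elsewhere. Mmp13, the other hypertrophic marker in the table, ran the other way. It was called higher in each other population than in GFP− Pdgfrα−. Its log2 differences were 5.672 for GFP+ Pdgfrα+, 2.565 for GFP+ Pdgfrα− and 1.248 for GFP− Pdgfrα+. Which cells the Matn1 reads came from was not tested.

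Matn3, a matrilin of the growth plate in which mutations cause a skeletal dysplasia, was lowest in GFP+ Pdgfrα−. Values were 5.66 and 4.46 in GFP+ Pdgfrα+, 5.67 and 13.2 in GFP− Pdgfrα+, 0.850 and 1.42 in GFP+ Pdgfrα−, and 11.9 and 15.4 in GFP− Pdgfrα−. The GFP+ Pdgfrα− libraries, with 3 and 5 reads, lay below the other 6, and the 2 GFP− populations overlapped. The mean was 12.1-fold higher in GFP− Pdgfrα− than in GFP+ Pdgfrα− (adjusted p = 0.000146) and 8.34-fold higher in GFP− Pdgfrα+ than in GFP+ Pdgfrα− (adjusted p = 0.00216), the latter 5.01-fold without GFP− Pdgfrα+ replicate 2. Matn3 was also called between GFP+ Pdgfrα+ and GFP+ Pdgfrα− (1.51 ± 0.43, adjusted p = 0.0228), a call that ended when any of these 4 libraries was left out (adjusted p = 0.0583 to 0.144; 0.0181 to 0.144 over 17 alternatives) and with voom. Between GFP+ Pdgfrα+ and GFP− Pdgfrα− the difference was −1.27 ± 0.43 (adjusted p = 0.022), and it was lost without GFP+ Pdgfrα+ replicate 2 or GFP− Pdgfrα− replicate 2 (adjusted p = 0.0974 and 0.119; 0.00297 to 0.119 over 17 alternatives).

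Lect1 encodes chondromodulin, a cartilage protein that inhibits blood vessel growth. Its values were 0.414 and 2.16 in GFP+ Pdgfrα+, 14.0 and 41.4 in GFP− Pdgfrα+, 0.850 and 0.643 in GFP+ Pdgfrα−, and 12.5 and 19.0 in GFP− Pdgfrα−. Both GFP+ populations were near or at the floor and both GFP− populations were well above it, so GFP+ and GFP− libraries did not overlap at either Pdgfrα state. Mean Lect1 was 21.6-fold higher in GFP− Pdgfrα+ than in GFP+ Pdgfrα+ (log2 difference of GFP+ over GFP− −3.58 ± 0.54, adjusted p = 0.00245). The fold was 10.9 without GFP− Pdgfrα+ replicate 2, and 12.9 and 66.9 without GFP+ Pdgfrα+ replicate 1 and replicate 2. Without GFP− Pdgfrα+ replicate 1 this difference was −4.33 (adjusted p = 0.00612), without GFP− Pdgfrα+ replicate 2 it was −2.83 (adjusted p = 0.0489), and it was called in 17 of 17 alternatives (0.000655 to 0.0489). The ratio of GFP− Pdgfrα− to GFP+ Pdgfrα− was 25.5 (counting interval 10.6 to 79.9, adjusted p = 0.000266). These 2 differences between GFP states were not called different from each other (interaction −0.34 ± 0.76, adjusted p = 0.749), and this value was positive in some settings. The 2 GFP− populations overlapped and were not called different (0.62 ± 0.54, adjusted p = 0.341).

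Cytl1, a small secreted protein first named as a cytokine and made by chondrocytes, varied most between replicates. It read 3.18 and 16.5 in GFP+ Pdgfrα+, 40.0 and 115 in GFP− Pdgfrα+, 0.121 and 0.90 in GFP+ Pdgfrα−, and 1.87 and 23.2 in GFP− Pdgfrα−. Replicate 2 was the higher of the pair in each population, GFP− Pdgfrα+ was above the other 6 libraries and GFP+ Pdgfrα− was below them. Mean Cytl1 was highest in GFP− Pdgfrα+, with a ratio to GFP+ Pdgfrα− of 199 in pooled reads (counting interval 67.6 to 966) and a limma adjusted p = 0.000625 for that pair. The 3 reads of GFP+ Pdgfrα− behind this ratio all came from replicate 2, and replicate 1 had none. The fitted difference of −5.56 became −6.32 without GFP− Pdgfrα+ replicate 1 and −4.81 without replicate 2, and was called in 17 of 17 alternatives. The difference between the 2 Pdgfrα+ populations, 7.88-fold in the means, missed the threshold (−3.01 ± 0.90, adjusted p = 0.0793), as did that between the 2 GFP+ populations (2.55 ± 0.90, adjusted p = 0.0586). The 7.88-fold difference was 4.06-fold without GFP− Pdgfrα+ replicate 2, and 4.70-fold and 24.5-fold without GFP+ Pdgfrα+ replicate 1 and replicate 2. Leaving out either GFP− Pdgfrα− library brought the former to an adjusted p = 0.0149 and 0.0177 and the latter to 0.0119 and 0.0139. The latter also passed without GFP+ Pdgfrα+ replicate 1 (adjusted p = 0.0394). With the replicate number as a block both were called (adjusted p = 0.00306 and 0.00205), as they were with edgeR. The latter also passed with a pseudocount of 0.1, with median centring and with the 2 compared populations alone, so the former was called in 4 and the latter in 8 of 17 alternatives. Over 17 alternatives the adjusted p ran from 0.00306 to 0.438 for the former and from 0.00205 to 0.371 for the latter.

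Cytl1 was called in 2 comparisons with GFP− Pdgfrα−, and neither call was kept in each alternative. GFP− Pdgfrα+ was higher than GFP− Pdgfrα− (3.05 ± 0.90, adjusted p = 0.0109), but not without GFP− Pdgfrα+ replicate 2 (2.30, adjusted p = 0.123) or GFP− Pdgfrα− replicate 1 (1.51, adjusted p = 0.126; 0.000138 to 0.126 over 17 alternatives). It was 3.80 without GFP− Pdgfrα+ replicate 1 and 4.59 without GFP− Pdgfrα− replicate 2. GFP+ Pdgfrα− was lower than GFP− Pdgfrα− (−2.51 ± 0.90, adjusted p = 0.0323), but not without GFP− Pdgfrα− replicate 2 (−0.97, adjusted p = 0.355; −4.05 without replicate 1), nor without either GFP+ Pdgfrα− library (adjusted p = 0.188 and 0.0843; 0.000746 to 0.355 over 17 alternatives). The latter call was also lost without the mean-variance trend, with voom and with the 2 compared populations alone, and was kept in 11 of 17 alternatives. The GFP+ Pdgfrα+ and GFP− Pdgfrα− libraries overlapped, and the sign of their difference (0.04 ± 0.90, adjusted p = 0.977) changed with the scaling, to −0.44 with median centring.

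**Figure D1:**
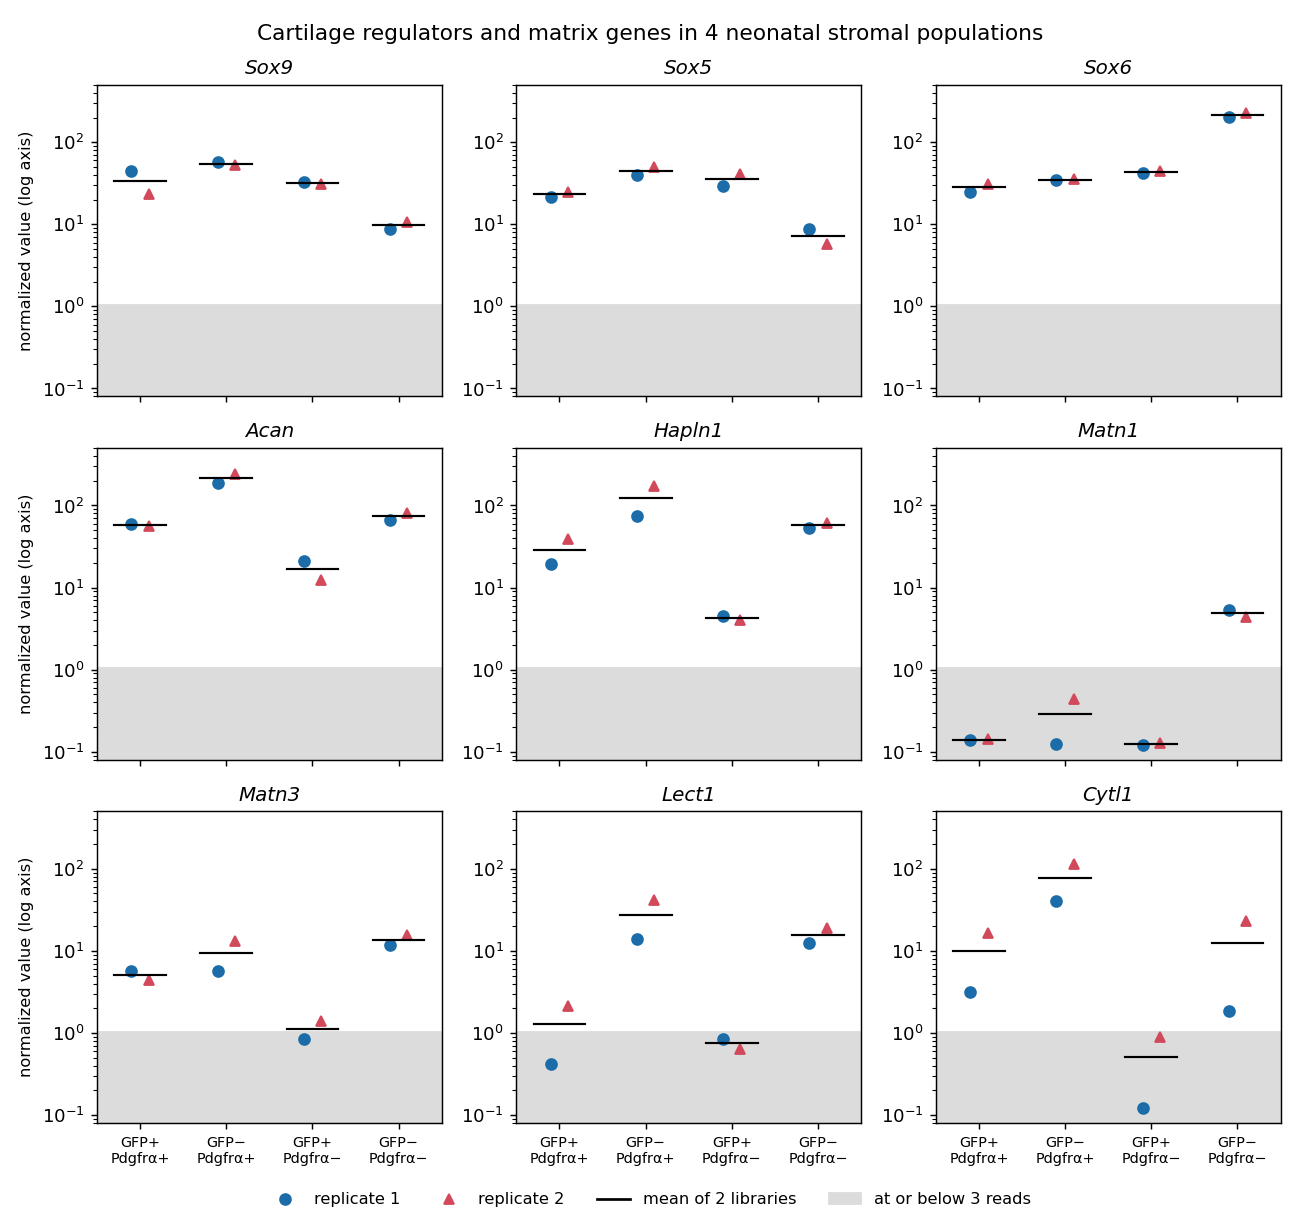
Normalized value (log axis) of each of the 9 genes in the 4 populations, with replicate 1 as circles, replicate 2 as triangles and the mean of the 2 libraries as a line; the grey band ends at 1.04, the highest value that 3 reads have in any library. Sox9 and Sox5 are lowest and Sox6 is highest in GFP− Pdgfrα−, Acan, Hapln1, Matn3 and Cytl1 are lowest in GFP+ Pdgfrα−, and Matn1 leaves the band in GFP− Pdgfrα− alone.

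Levels of different genes can be compared per kilobase of exon. In GFP− Pdgfrα+ the mean value per kilobase was 79.8 for Cytl1, 29.5 for Acan, 24.4 for Hapln1, 15.0 for Lect1 and 13.3 for Sox9, and between 3.1 and 3.95 for Sox5, Matn3 and Sox6. Its replicates 1 and 2 had 41.03 and 118.5 for Cytl1, and 7.59 and 22.49 for Lect1. Lect1 was below Sox9 in replicate 1 (7.59 against 13.99). Hapln1 was slightly above Acan in replicate 2 (33.82 against 33.34). In GFP− Pdgfrα− the level per kilobase was highest for Sox6, at 24.4, followed by Cytl1 at 12.9, Hapln1 at 11.3 and Acan at 10, with Sox9 at 2.36 and Sox5 at 0.506. In GFP+ Pdgfrα− Sox9, at 7.79, and Sox6, at 4.91 per kilobase, were highest in both libraries. Sox5 followed at 2.47 and Acan at 2.26, but Acan was above Sox5 in replicate 1 (2.86 against 2.05) and below it in replicate 2 (1.66 against 2.89). The order of the means also differed from that of single libraries in other populations, as for Cytl1 in GFP− Pdgfrα−, at 1.92 and 23.8. Summed over the 9 genes, the values were 181 and 198 in GFP+ Pdgfrα+, 456 and 724 in GFP− Pdgfrα+, 133 and 136 in GFP+ Pdgfrα−, and 373 and 447 in GFP− Pdgfrα−.

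The test across all 4 populations called all 9 genes, where 66% of all 15880 genes were called. Cytl1 had the largest adjusted p of the 9 in this test, at 0.00124, and Sox6 the smallest, at 7.43e-08. For a single gene outside such a model, an exact permutation test of 2 libraries against 2 cannot go below a two-sided p of 0.333, so none was used.

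The comparison of GFP+ Pdgfrα+ with GFP− Pdgfrα+ asks how nestin-GFP cells differ within the Pdgfrα+ stroma. Here 3 of the 9 genes were called lower in GFP+ Pdgfrα+ (Acan, Hapln1 and Lect1), against 2.13% of all genes called lower and 3.22% called higher. The median log2 difference of the 9 genes was −0.91, beside 0.01 over all genes. All 9 values were lower in GFP+ Pdgfrα+ on average, but Matn1 was at the floor in both populations and changed sign when GFP− Pdgfrα+ replicate 2 was left out. The number called was 2 without GFP− Pdgfrα+ replicate 2 and 5 without either GFP− Pdgfrα− library. The calls over all genes fell from 849 to between 246 and 517 when any of the 4 compared libraries was left out, and to 532 without the mean-variance trend. Of the 849, 511 were higher and 338 lower, whereas voom called 521 higher and 536 lower. In the same contrast 4 of 4 tendon markers were called lower and 6 of 6 osteoblast markers higher, with log2 differences of −3.90 ± 0.21 for Tnmd and 4.90 ± 0.33 for Dmp1, a bone matrix protein.

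Within the GFP+ cells, GFP+ Pdgfrα+ was compared with GFP+ Pdgfrα−. Acan, Hapln1 and Matn3 were called higher in GFP+ Pdgfrα+ (3 of 9, against 13.1% of all genes) and Sox6 was called lower (1 of 9, against 11.1%). The median log2 difference was 0.28 (0.55 with the genes at the floor put at their bound), beside −0.03 over all genes. Of the 4 calls, those of Acan and Hapln1 held when any single library was left out, and 2 genes remained called without either GFP+ Pdgfrα− library. Without those libraries the calls over all genes fell from 3848 to 2158 (without replicate 1) and 2411 (without replicate 2). In this contrast 7 of 7 skeletal muscle markers, 5 of 6 Schwann cell markers and 3 of 5 pericyte and smooth muscle markers were called higher in GFP+ Pdgfrα−. The others, S100b (1.31), Cspg4 (0.48) and Pdgfrb (0.31), had positive log2 differences, towards GFP+ Pdgfrα+, and were not called. All osteoblast markers were called higher in GFP+ Pdgfrα+, with 3.46 for Spp1. So were the tendon markers Tnmd (2.02), Mkx (2.44) and Kera (2.55), while Scx was called lower (−1.275). The part of these markers was not tested.

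GFP+ Pdgfrα− against GFP− Pdgfrα+ compares the populations with a single marker each. Acan, Hapln1, Matn3, Lect1 and Cytl1 were called lower in GFP+ Pdgfrα−, so 5 of the 9 genes and each of the matrix and secreted genes but Matn1, against 14.3% of all genes called lower and 13.5% called higher. The 3 Sox genes were not called, with log2 differences of −0.75 for Sox9, −0.33 for Sox5 and 0.31 for Sox6. All 5 calls held when any single library was left out. Over all genes the calls fell from 4427 to 2874 without GFP− Pdgfrα+ replicate 2 and to 2757 without GFP+ Pdgfrα− replicate 1. In the same contrast all tendon markers were called lower in GFP+ Pdgfrα−, with a log2 difference of −5.92 for Tnmd. All skeletal muscle markers were called higher there, with 5.16 for Ttn. What these markers contributed was not tested.

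The 3 comparisons with GFP− Pdgfrα− share its libraries and depend on the scaling. As deposited, the median log2 difference over all genes was 0.20 for GFP+ Pdgfrα+, 0.17 for GFP− Pdgfrα+ and 0.15 for GFP+ Pdgfrα−, and with median centring it was −0.28, −0.28 and −0.30. The genes called higher and lower were 5221 and 4189 for GFP+ Pdgfrα+ as deposited, and 3834 and 5846 with median centring. For GFP− Pdgfrα+ they were 5226 and 4250, then 3913 and 5720, and for GFP+ Pdgfrα− 4787 and 3740, then 3550 and 5569. Quantile normalization gave 4059 and 5132, 4249 and 5086, and 3871 and 4419. The balance of higher against lower calls therefore flipped, whereas no called difference of the 9 genes changed its sign under either scaling. With quantile normalization it also flipped for GFP+ Pdgfrα+ over GFP+ Pdgfrα−, from 2080 higher and 1768 lower to 1986 and 2102, and for GFP+ Pdgfrα− over GFP− Pdgfrα+, from 2150 and 2277 to 2408 and 2241.

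Against these backgrounds, GFP+ Pdgfrα+ had 2 of the 9 genes called higher than GFP− Pdgfrα− (Sox9 and Sox5; 32.9% of all genes) and 5 called lower (Sox6, Hapln1, Matn1, Matn3 and Lect1; 26.4%). GFP− Pdgfrα+ had 5 called higher (Sox9, Sox5, Acan, Hapln1 and Cytl1; 32.9% of all genes) and 2 lower (Sox6 and Matn1; 26.8%). GFP+ Pdgfrα− had 2 called higher (Sox9 and Sox5; 30.1%) and the other 7 called lower (23.6%). Sox9 and Sox5 were thus higher, and Sox6 and Matn1 lower, in each of the other 3 populations than in GFP− Pdgfrα−. The median log2 difference of the 9 genes was −1.02 for GFP+ Pdgfrα+, 0.98 for GFP− Pdgfrα+ and −2.37 for GFP+ Pdgfrα− (−2.47 with the genes at the floor put at their bound).

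The interaction compares the GFP difference in Pdgfrα+ cells with that in Pdgfrα− cells. It was called for 6 of the 9 genes, against 44.3% of all genes. Over all genes 3032 were called positive and 3999 negative, and 4427 and 2989 with median centring, or 3307 and 3306 with quantile normalization. It was negative for Sox9 (−2.38 ± 0.40) and Sox5 (−3.06 ± 0.38), which were higher in GFP+ than in GFP− cells among the Pdgfrα− populations only. It was positive for Sox6, Hapln1, Matn1 and Matn3. The call was kept in 16 of 16 alternatives for Sox9, Sox5 and Sox6, in 15 for Matn1 (not with edgeR), in 13 for Matn3 and in 8 for Hapln1. Matn3 lost it without GFP− Pdgfrα+ replicate 1 (adjusted p = 0.065), GFP+ Pdgfrα− replicate 1 (0.0553) or GFP− Pdgfrα− replicate 2 (0.0511), within a range of 0.00403 to 0.065. Hapln1 kept it without GFP+ Pdgfrα+ replicate 1 and GFP− Pdgfrα+ replicate 2, and lost it without any of the other 6 libraries, without the mean-variance trend and with voom, within a range of 0.00909 to 0.181. Acan, Lect1 and Cytl1 were not called (adjusted p = 0.553, 0.749 and 0.782).

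**Figure D2:**
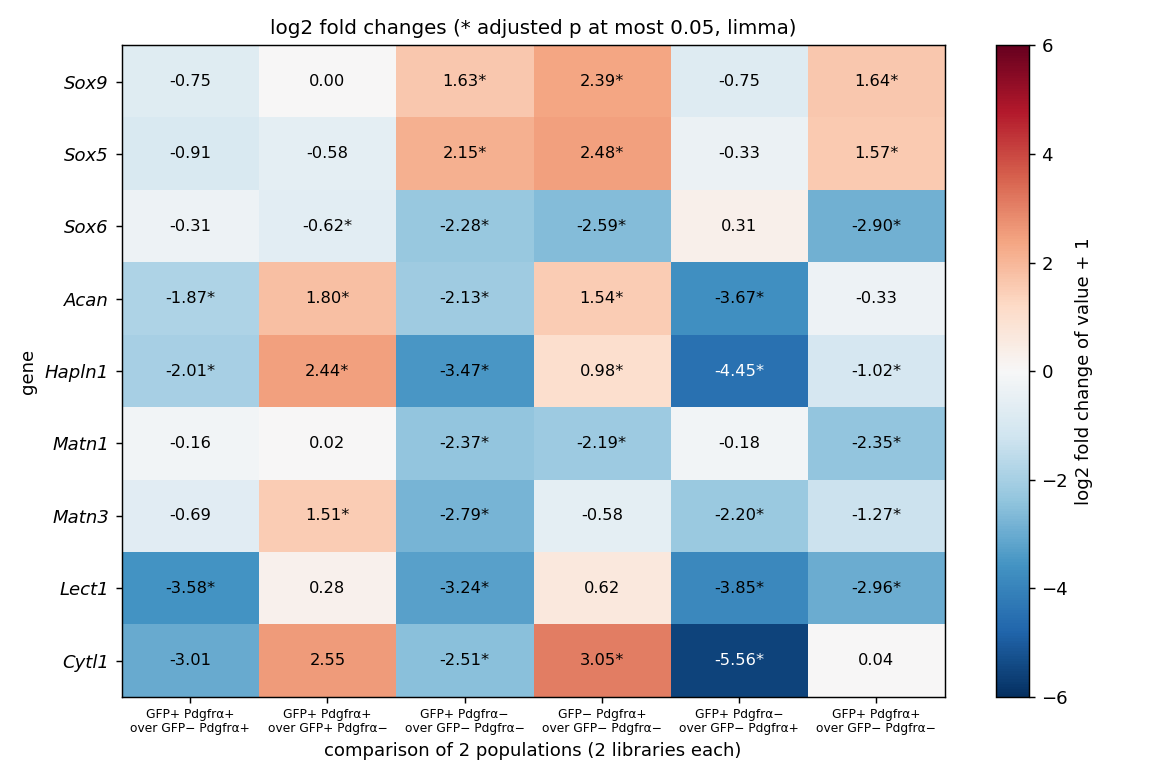
Log2 fold change (of value plus 1, colour and number) of each of the 9 genes in the 6 comparisons of 2 populations with 2 libraries each; an asterisk marks a limma adjusted p of at most 0.05. All 9 genes carry an asterisk for GFP+ Pdgfrα− over GFP− Pdgfrα−, where 30.1% of all genes were called higher and 23.6% lower. For GFP+ Pdgfrα+ over GFP− Pdgfrα+ 3 genes do, where 3.22% of all genes were called higher and 2.13% lower.

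Counts for the related lists that follow stand beside the shares of all genes called in each comparison: 3.22% higher and 2.13% lower in GFP+ cells of the Pdgfrα+ pair, 13.1% and 11.1% in Pdgfrα+ cells of the GFP+ pair, and 13.5% and 14.3% in GFP+ Pdgfrα− over GFP− Pdgfrα+. For GFP− Pdgfrα+ over GFP− Pdgfrα− they were 32.9% and 26.8%. The nearest relatives by protein family did not share the patterns of the 9 genes throughout. Of 12 listed, 10 were in the table. Vcan, the large proteoglycan of soft connective tissue and the relative of Acan, stood at 2309 and 2590 in GFP+ Pdgfrα+, 3914 and 3279 in GFP− Pdgfrα+, 576 and 615 in GFP+ Pdgfrα−, and 15.9 and 32.2 in GFP− Pdgfrα−. It was thus lowest in GFP− Pdgfrα−, where Acan was not. Matn2, a matrilin found outside cartilage, was likewise low there, at 4.74 and 8.84 against 302 to 425 in the other libraries, the reverse of Matn1. Sox8 and Sox10, relatives of Sox9, were highest in GFP+ Pdgfrα−, at 162 and 142 for Sox8 and 83.2 and 85.8 for Sox10. Tnmd, the tendon relative of Lect1, was 407 and 360 in GFP− Pdgfrα+ but 18.0 and 19.9 in GFP− Pdgfrα−, where Lect1 was not called different from GFP− Pdgfrα+. Between the Pdgfrα+ populations, 4 relatives were called higher in GFP+ cells (Sox8, Sox10, Bcan and Hapln4) and 1 lower (Tnmd), with Sox10 and Bcan at the floor in GFP− Pdgfrα+.

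All 7 cartilage collagens were in the table. Col2a1, the main collagen of cartilage, stood at 175 and 280 in GFP+ Pdgfrα+, 273 and 1498 in GFP− Pdgfrα+, 12 and 48.2 in GFP+ Pdgfrα−, and 371 and 753 in GFP− Pdgfrα−. Like Acan, it was lowest in GFP+ Pdgfrα−, and its 2 GFP− Pdgfrα+ libraries were far apart. Between the 2 Pdgfrα+ populations 2 collagens were called lower in GFP+ cells and 2 higher (Col11a1 and Col11a2), with a list median of −1.53. Col11a1, at 2447 and 1718 in GFP+ Pdgfrα+ against 854 and 1020 in GFP− Pdgfrα+, ran against Acan. From GFP− Pdgfrα− to GFP+ Pdgfrα− 5 of the 7 were called lower, against 23.6% of all genes.

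Of the other noncollagenous cartilage matrix and secreted proteins, 13 were in the table. Of these, 6 were called lower in the GFP+ cells of the Pdgfrα+ pair and the other 7 were not called, with a median of −1.26. Examples are Fmod, a collagen-binding proteoglycan (log2 difference −3.10 ± 0.27, adjusted p = 6.88e-05), and Prg4, the lubricant of joint surfaces (−2.67 ± 0.46, adjusted p = 0.00525). In GFP+ Pdgfrα− over GFP− Pdgfrα+, 9 were called lower and 1 higher. In GFP− Pdgfrα+ over GFP− Pdgfrα−, 10 of the 13 were called higher, with a median of 1.79. In GFP+ Pdgfrα+ over GFP− Pdgfrα−, where Acan was not called (−0.33), 5 were called higher, Fmod, Prg4, Cilp and Mgp among them, and 1 lower, against 32.9% and 26.4% of all genes. Fmod and Tnmd are also expressed in tendon, and the tendon markers were highest in the same GFP− Pdgfrα+ libraries.

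Of 16 chondrocyte regulators and growth plate signals listed, 12 were in the table; Ihh, Gdf5, Foxa2 and Foxa3 were not analysed here. Between the Pdgfrα+ populations, 4 were called higher in GFP+ cells, among them Mef2c and Runx2, which also act in osteoblasts, whose markers were highest in the same libraries. Mef2c stood at 326 and 242 in GFP+ Pdgfrα+ against 37.4 and 37.3 in GFP− Pdgfrα+. The most abundant gene of the list, Creb3l2, which serves secretion of cartilage matrix, was 330 and 332 in GFP+ Pdgfrα+, 451 and 471 in GFP− Pdgfrα+, 176 and 204 in GFP+ Pdgfrα−, and 25.4 and 27.9 in GFP− Pdgfrα−. The GFP− Pdgfrα− libraries were thus low for Creb3l2 as for Sox9 and Sox5, and 9 of the 12 were called higher in GFP− Pdgfrα+ than there and 1 lower (against 32.9% and 26.8% of all genes). In GFP+ Pdgfrα− over GFP− Pdgfrα+, 8 of the 12 were called lower and 1, Mef2c, higher, and within GFP+ cells 7 were called higher in the Pdgfrα+ population and 1 lower.

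The enzymes that build and sulfate chondroitin sulfate, the sugar chains of aggrecan, were also listed. Of 20 genes, all in the table, between the 2 Pdgfrα+ populations 1 was called higher in GFP+ cells (Chsy1, 0.84 ± 0.17) and 1 lower, with a median of 0.00. Within GFP+ cells, 10 were called higher in the Pdgfrα+ population and 2 lower, with a median of 0.94. Chsy1, a chondroitin synthase, was 201 and 171 in GFP+ Pdgfrα+, 105 and 101 in GFP− Pdgfrα+, 83.2 and 109 in GFP+ Pdgfrα−, and 65.6 and 80.3 in GFP− Pdgfrα−. In GFP− Pdgfrα+ over GFP− Pdgfrα−, 12 were called higher and 1 lower.

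Among 7 genes of hyaluronan synthesis, binding and breakdown, limma called 0 between the 2 Pdgfrα+ populations, with 3 at an unadjusted p under 0.05. On recovered reads voom called 1 and edgeR 0. Within GFP+ cells, 4 were called higher in the Pdgfrα+ population, among them Has2, a hyaluronan synthase (1.58 ± 0.30, adjusted p = 0.00238). Has2 was 32.7 and 36.4 in GFP+ Pdgfrα+, 54.1 and 58.9 in GFP− Pdgfrα+, 12.3 and 9.65 in GFP+ Pdgfrα−, and 0.718 and 1.77 in GFP− Pdgfrα−. The GFP− Pdgfrα− cells, in which Acan and Hapln1 were present, thus had the lowest Has2.

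For each of the 9 genes, the genes of highest Pearson correlation of log2 values over the 8 libraries were listed, as a description. The 8 libraries fall into 4 populations, and a correlation does not measure the size of a difference. Sox6 was most like Arrb1 (Pearson r = 0.998), Tmcc2 and Tuba4a, and Matn1 was most like Dyrk3 (r = 0.998), Tspo2 and Icam4. Each of these 6 genes was high in the GFP− Pdgfrα− libraries; Tspo2, for example, read 45.0 and 44.0 there and at most 1.04 elsewhere. Acan was most like Gpsm2 (r = 0.977), Kera and Comp, and Hapln1 was most like 4930523C07Rik (r = 0.989), Cacna1e and Rabgap1l. The closest to Sox9 were Nfe2l1, Fam168a and Nptxr, to Sox5 Bri3, Ift88 and Spsb4, and to Matn3 Ldb1, Dcaf6 and Darc. Lect1 was closest to Kdm2a (r = 0.95), Sertad3 and Zfp369, and Cytl1 to Traf7 (r = 0.979), AI480526 and Mll5. In GFP+ Pdgfrα− over GFP− Pdgfrα+, Kdm2a had a log2 difference of −0.25 against −3.855 for Lect1. Traf7 had −0.747 there against −5.564 for Cytl1. Kdm2a and Sertad3 were not called in the test across all 4 populations, and the others named with Lect1 and Cytl1 were.

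The 2 libraries of a population differed for some of these genes by more than for most others. In GFP− Pdgfrα+, 8 of the 9 genes were higher in replicate 2, with log2 differences of 1.51 for Cytl1, 1.501 for Lect1, 1.168 for Hapln1 and 1.09 for Matn3, all above the 95th percentile over all genes of 0.86. In the same pair of libraries 6 of the 7 cartilage collagens were higher in replicate 2, with a median of 1.34 and 2.45 for Col2a1. Acan differed less, by 0.37. In GFP+ Pdgfrα+, 6 of the 9 values were higher in replicate 2, with Cytl1 (2.07) and Lect1 (1.16) above the 95th percentile there, 1.04. Matn1 is among these 6 without a read in either library, so its 0.007 reflects library size alone. Sox9 had a difference of −0.93 there, and 1 of the 7 collagens was higher in replicate 2. In GFP− Pdgfrα−, 7 of the 9 genes and 6 of the 7 collagens were higher in replicate 2, and Cytl1 had the largest difference of the 9 genes in any population, 3.08 against a 95th percentile of 1.01. In GFP+ Pdgfrα−, 5 of the 9 values and 5 of the 7 collagens were higher in replicate 2. Matn1 (0.009) is again among these values without a read in either library. None of the 9 genes passed the 95th percentile in GFP+ Pdgfrα−.

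**Figure D3:**
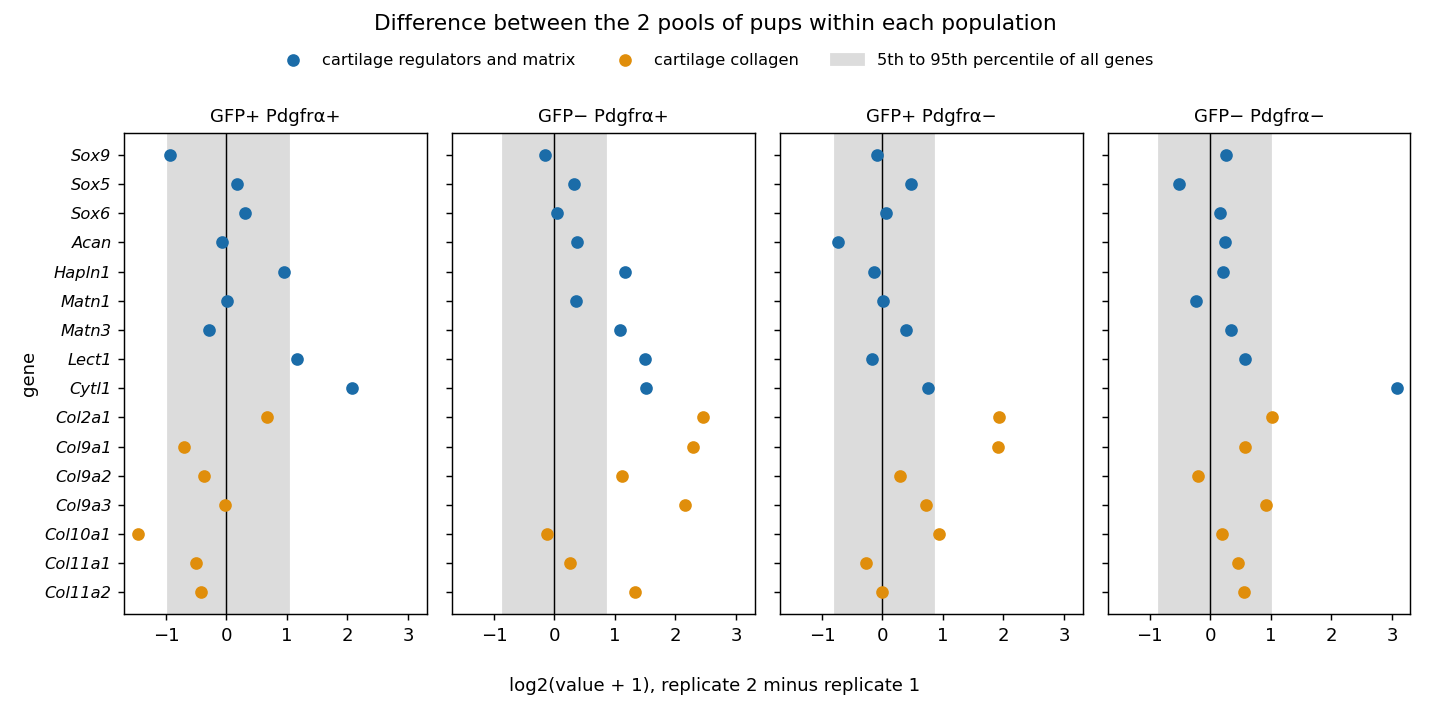
Difference in log2(value + 1) of replicate 2 minus replicate 1 within each population, for the 9 genes (blue) and 7 cartilage collagens (orange); the grey band spans the 5th to 95th percentile of all genes. In GFP− Pdgfrα+ most points lie to the right of 0, up to 2.45 for Col2a1, and Cytl1 lies to the right of 0 in each population.

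The 9 genes lie on 8 chromosomes of mouse build NCBIM37, on which the authors' annotation was based. Sox9 (ENSMUSG00000000567) spans chr11:112643538-112649074, Sox5 (ENSMUSG00000041540) chr6:143776945-144730497 and Sox6 (ENSMUSG00000051910) chr7:122614858-123182258. Acan (ENSMUSG00000030607) spans chr7:86198369-86259985, Hapln1 (ENSMUSG00000021613) chr13:89680241-89751437, Matn1 (ENSMUSG00000040533) chr4:130500300-130511390 and Matn3 (ENSMUSG00000020583) chr12:8954735-8978834. Lect1 (ENSMUSG00000022025) spans chr14:80037497-80061977 and Cytl1 (ENSMUSG00000062329) chr5:38126758-38131059. Other than Sox5, none overlaps an exon of another annotated gene.

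Promoter windows of 300 bases (250 before to 50 after the start) were taken from RefSeq on build GRCm38.p6, a later build than that of the expression table. They covered 8 of the 9 genes in 13 windows; that of Sox9 was not analysed here. Since Sox proteins bind sequences with a short core, the windows were searched on both strands for ACAAT and ACAAAG, which 31.0% and 18.7% of 32851 mouse promoters hold. At least 1 of them is in 42.9% of promoters. A match was found for Hapln1, Sox5 and Sox6, and these letters were not in the windows of Acan, Lect1, Cytl1, Matn1 and Matn3. Sox6 had several windows and each other gene a single window, so a match for Sox6 cannot be set beside the share per promoter. Such a match describes letters and is not a binding site. Pattern and match did not go together, since Acan, Lect1 and Cytl1 had the same order of population means as Hapln1 without a match. The windows of Hapln1 (chr13:89540386-89540685, plus strand) and Matn1 (chr4:130944135-130944434, plus strand) are shown as examples with and without a match. Capitals mark ACAAT.
Hapln1: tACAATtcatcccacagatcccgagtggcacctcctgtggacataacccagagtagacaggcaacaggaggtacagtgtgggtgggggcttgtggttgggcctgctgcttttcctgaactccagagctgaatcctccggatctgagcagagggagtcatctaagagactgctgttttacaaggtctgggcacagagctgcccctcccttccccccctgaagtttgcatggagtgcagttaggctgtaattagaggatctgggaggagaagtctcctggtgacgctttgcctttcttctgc
Matn1: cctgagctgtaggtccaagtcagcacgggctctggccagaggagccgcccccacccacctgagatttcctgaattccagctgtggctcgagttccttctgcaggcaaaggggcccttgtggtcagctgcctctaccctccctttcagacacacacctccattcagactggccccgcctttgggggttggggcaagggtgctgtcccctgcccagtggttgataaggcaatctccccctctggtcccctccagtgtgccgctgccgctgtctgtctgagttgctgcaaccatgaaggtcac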

How the data were processed

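RNA from sorted cells (15000 to 80000 per library) was amplified and sequenced. The authors trimmed reads with cutadapt and counted them with RSEM 1.17 on mouse build NCBIM37 (Ensembl 65). The deposited signal is the value the authors made with limma voom, without the log: reads plus 0.5 over the effective library size, times 1e6. Whole reads were recovered for 100% of values, within 0.01. Of 15880 identifiers, 15849 matched the annotation.

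Log2(value + 1) was fitted with limma 3.58.1 in R 4.3.3, with 1 coefficient per population, a mean-variance trend and 4 residual degrees of freedom. P-values were adjusted by Benjamini-Hochberg over 15880 genes. The threshold was 0.05. The tests were two-sided. Alternatives were a replicate block, a pseudocount of 0.1, a filter on low values (14333 genes), median centring, quantile normalization, no trend, voom and edgeR 4.0.16 on recovered reads, leaving out each library, and the 2 compared populations alone. For GFP+ Pdgfrα+ over GFP− Pdgfrα+, limma called 849 genes (511 higher, 338 lower), edgeR 893 (526 and 367) and voom 1057 (521 and 536). The code was tested on simulated data. Python 3.11.15, numpy 2.4.6, pandas 2.3.3 and matplotlib 3.10.9 were used for levels and plots.

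Named genes were the 9 genes, their relatives by protein family, up to 4 genes of highest mean value per other list or marker set, and the 3 genes most like each of the 9 by Pearson r among 14333 genes. Markers at the floor, or not called with the rest of their set, were also named, by their values. The 9 genes and the lists were chosen with earlier results of these data known. Libraries held 3221217 to 5302762 reads, so values near 3 reads carry large counting error. Levels per kilobase use the annotated exon length. Values of 1 erythroid marker are not reported here on their own.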

Additional observations from a re-analysis of the deposited data

Results flagged for a closer look

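For 6 of the 9 genes the difference between GFP+ and GFP− cells was not the same at the 2 Pdgfrα states, by the interaction term of the limma fit (GFP difference in Pdgfrα+ minus that in Pdgfrα− cells, log2 scale). Over all genes the term was called for 44.3%. Sox9 had a value of −2.382 (adjusted p = 0.000419) and Sox5 of −3.059 (adjusted p = 4.21e-05), both higher in GFP+ than in GFP− cells among the Pdgfrα− populations. The value for Sox6 was 1.968 (adjusted p = 3.93e-05), with its peak in GFP− Pdgfrα−. Among the matrix genes it was 1.460 for Hapln1 (adjusted p = 0.0375), 2.210 for Matn1 (adjusted p = 0.00326) and 2.094 for Matn3 (adjusted p = 0.0142). The Hapln1 call was lost in 8 of 16 alternatives, that of Matn3 in 3 and that of Matn1 in 1. Matn1 was at the floor of 3 reads in 3 of the 4 populations, so the size of its value depends on the pseudocount.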

How the results depend on the processing

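Of 72 results for the 9 genes, 50 were called, 39 of these in each alternative and 11 not in each. Of the 50, 9 were tests across all 4 populations, which have no sign, and none of the others changed sign. Among 1206 alternative values, 1106 kept side of the threshold and, where there is one, direction. Another 50 fell short of the threshold, 23 newly passed it and 27 changed sign. For GFP+ Pdgfrα+ over GFP− Pdgfrα+, 849 genes were called, 532 without the trend and 246 to 1083 with a library left out. Of the 9 genes, edgeR called 5 there against 3, and leaving out a library gave 2 to 5. For GFP+ Pdgfrα+ over GFP+ Pdgfrα−, 4 were called, 2 with voom and 2 to 5 with a library left out, and over all genes 2158 to 4056. For GFP+ Pdgfrα− over GFP− Pdgfrα+, leaving out a library gave 2757 to 4642 genes.

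The sign changed for results that had not been called. Between the GFP+ populations Sox9 (0.004) became −0.023 with median centring and −0.045 with quantile normalization, and ranged from −0.459 to 0.467 with a library left out. There Matn1 (0.020) became −0.006 with median centring and 0.000 with quantile normalization and edgeR, and Lect1 ranged from −0.302 to 0.856 with a library left out. In the same runs Matn1 between the Pdgfrα+ populations ranged from −0.341 to 0.019, and Lect1 between the GFP− populations from −0.131 to 1.370. Cytl1 in GFP+ Pdgfrα+ over GFP− Pdgfrα− (0.038) became −0.443 with median centring, −0.458 with quantile normalization, −0.049 with voom and −0.473 with edgeR, and ranged from −1.502 to 1.577. For the interaction, Cytl1 (−0.499) became 0.643 with the smaller pseudocount, 1.314 with voom and 2.067 with edgeR, and ranged from −2.039 to 1.040. Lect1 (−0.342) became 0.084 with median centring and 0.091 with edgeR, and ranged from −1.092 to 0.408. Acan (0.261) ranged from −0.107 to 0.628. The cause was not tested. Called differences of genes with few reads grew with the smaller pseudocount, voom and edgeR, as for Lect1 between the Pdgfrα+ populations (−3.578; then −4.489, −4.624 and −4.558) and Cytl1 in GFP+ Pdgfrα− over GFP− Pdgfrα+ (−5.564; then −7.175, −7.669 and −7.583).

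With 2 libraries per population, a population left with 1 library is assumed to vary like the others. The labels do not say whether a replicate number marks the same pool of pups in each population. The series' design speaks of independent sets of samples from pooled bones of littermates without tying a replicate number to a set, and Xist was 2.9 to 11.4 in replicate 1 and 868 to 1380 in replicate 2 of the 4 populations. The correlation of replicate differences between populations was 0.004 to 0.081. The replicate block newly called Cytl1 for GFP+ Pdgfrα+ over GFP− Pdgfrα+ (adjusted p = 0.00306) and over GFP+ Pdgfrα− (adjusted p = 0.00205). Matn1, Lect1 and Cytl1 have few reads in several libraries, so smaller differences were not detectable at this depth.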

Other observations

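A coefficient for the replicate number, added after seeing the data, was fitted with limma beside the 4 populations. It was called for 3 of 15880 genes, all higher in replicate 2 and named after their values were seen. Xist, the RNA made from the inactive X chromosome, had values of 2.9 and 868 in GFP+ Pdgfrα+, 8.95 and 1380 in GFP− Pdgfrα+, 4.98 and 1051 in GFP+ Pdgfrα−, and 11.4 and 1351 in GFP− Pdgfrα− (log2 difference 7.29, adjusted p = 9.38e-11). Replicate 2 was thus far higher in each population. The other genes were Hspa1a, a heat shock protein (0.83, adjusted p = 0.0447), and Prg4, the joint lubricant (1.01, adjusted p = 0.0447). Of the 9 cartilage genes, Cytl1 and Sox6 were higher in replicate 2 in 4 of 4 populations, as were 7.1% of all genes. Neither was called, with Cytl1 at 1.85 (adjusted p = 0.177) and Sox6 at 0.14 (adjusted p = 0.86), nor was Col2a1 (1.52, adjusted p = 0.063). Hapln1 and Lect1 had replicate differences of 0.55 and 0.76 (adjusted p = 0.792 for both). Whether the sex of the pups bears on the cartilage genes was not tested.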
